A study of Mus musculus with 2 samples.

Results

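The 4 chemokine genes Ccl3, Ccl4, Ccl5 and Xcl1 were followed through 2 droplet single-cell RNA libraries of mouse colon lymphocytes. They were taken by gene symbol, and all 4 were found among the 32285 genes of each matrix. The TIL library came from colon tumor and the IEL library from normal colon tissue. Both were labelled as γδ T lymphocytes, and both came from C57BL/6J mice aged 18 to 20 weeks. Cut and digested tissue was spun on a Percoll gradient and the cells at its interface were used, per the labels' protocols. The protocol text names tumor tissue for both libraries and gives no sort or gate and no number of animals. Each group was 1 library, so no difference could be checked in a replicate and none was tested. The values compare 2 libraries, and the 95% intervals given in parentheses cover counting error alone.

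Chemokines are small secreted proteins that bind receptors on other leukocytes and steer their movement. Ccl3 and Ccl4 (macrophage inflammatory proteins 1α and 1β) are made on activation by T cells, NK cells and myeloid cells, and Ccl3 binds the receptor Ccr1. Ccl5 (RANTES) binds Ccr1 and Ccr3, and its transcript is kept by effector and memory lymphocytes. Xcl1 (lymphotactin) binds Xcr1, the receptor of cross-presenting dendritic cells. Ccl3, Ccl4 and Ccl5 belong to the CC family, named for a pair of adjacent cysteines, and Xcl1 to the C family, which lacks one of these. Intraepithelial lymphocytes of the gut are known as cytotoxic cells that hold granzyme and Ccl5 transcripts at rest.

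In the GENCODE vM21 annotation of GRCm38, Ccl3 (ENSMUSG00000000982) spans bases 83647844 to 83649355 of chromosome 11 on the minus strand. Ccl4 (ENSMUSG00000018930) lies 13228 bases away at 83662584 to 83664683 on the plus strand. Ccl5 (ENSMUSG00000035042) spans 83525778 to 83530518 of the same chromosome on the minus strand. Xcl1 (ENSMUSG00000026573) spans 164931644 to 164935527 of chromosome 1 on the minus strand. Of these, Xcl1 alone overlaps another annotated gene, the antisense transcript gene Gm20743, which had 0 UMIs in γδ T-like cells of TIL and 22 UMIs in those of IEL. The strand setting of the counting is not given in the sources used here. The RefSeq promoter table (GRCm38.p6) held 2 of the 4 genes, Ccl3 and Xcl1. These 2 are therefore the ones shown. The 250 bases before each transcription start are given from 5′ to 3′ on the gene's own strand, with matches to the NFAT core (GGAAA or its complement TTTCC) and to the Runx motif (TGTGGT or ACCACA) in capitals.
Ccl3, chr11:83649379-83649628, minus strand: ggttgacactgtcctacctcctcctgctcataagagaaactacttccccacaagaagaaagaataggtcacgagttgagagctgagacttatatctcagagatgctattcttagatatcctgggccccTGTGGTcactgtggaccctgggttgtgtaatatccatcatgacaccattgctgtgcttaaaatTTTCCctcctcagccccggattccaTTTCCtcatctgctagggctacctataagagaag
Xcl1, chr1:164935523-164935772, minus strand: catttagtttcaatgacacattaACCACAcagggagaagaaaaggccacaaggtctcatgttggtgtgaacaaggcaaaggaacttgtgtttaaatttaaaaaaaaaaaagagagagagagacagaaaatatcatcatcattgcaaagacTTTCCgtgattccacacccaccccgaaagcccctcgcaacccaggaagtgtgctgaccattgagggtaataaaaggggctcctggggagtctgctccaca
The NFAT core matched at 2 places in the Ccl3 window, 59 and 34 bases before the start, and at 1 place in the Xcl1 window, 100 bases before it. The Runx motif matched once in each, 122 and 227 bases before the start. Of 32841 promoter windows of the same length, 55.6% held the NFAT core and 14.0% the Runx motif, so both are common words. The Ccl3 window also held 1 E-box (CANNTG, 66.2% of windows) and 1 ISRE core (GAAANNGAA, 7.13%), and the Xcl1 window neither. Neither window held AP-1 (TGANTCA, 6.75%), CRE (TGACGTCA, 1.55%), NF-kB (GGNNTTTCC, which contains the NFAT core, 4.93%) or T-box (AGGTGT, 11.8%) letters.

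The TIL library held 13245 barcodes with 94953893 unique molecular identifiers (UMIs, one per captured transcript) and the IEL library 9398 with 69414155. After filtering, 12407 TIL cells (median 6465 UMIs) and 9128 IEL cells (median 6858.5 UMIs) remained, and 33 barcodes occurred in both libraries. Cells were clustered together without any chemokine gene, and 11738 TIL and 9078 IEL cells fell in clusters named γδ T-like from their markers. Subset names came from fixed marker lists. IL-17-like cells made up 9787 of the TIL and 59 of the IEL cells, and cytotoxic-like cells 1089 of the TIL and 8898 of the IEL cells. Since each subset lay mostly in 1 library, library and cell type cannot be told apart for most of what follows. As a check of the label, Trdc of the δ chain was found without Trac of the α chain in 62.2% of TIL and 21.1% of IEL γδ T-like cells, and together with it in 36.9% of TIL and 75.7% of IEL cells. Trac alone was found in 0.264% of TIL and 2.03% of IEL cells. Levels are given as UMIs of a gene per 1000000 UMIs (CPM), summed over the cells of a group.

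All 4 chemokine transcripts were less abundant in tumor than in normal-colon γδ T-like cells. Ccl4 had 17.0 CPM in TIL cells (16.1 to 17.9), against 707 CPM in IEL cells (701 to 714), and was 41.6-fold lower in TIL. Ccl5 had 1419 CPM in TIL cells (1411 to 1427), against 22201 CPM in IEL cells (22166 to 22237), and was 15.6-fold lower. Ccl3 had 9.78 CPM in TIL cells (9.13 to 10.5), against 96.8 CPM in IEL cells (94.5 to 99.1), a 9.89-fold difference in the same direction. Xcl1 had 56.2 CPM in TIL cells (54.7 to 57.9), against 466 CPM in IEL cells (461 to 471), and was 8.28-fold lower. All 4 differed by at least 2-fold with an interval of the ratio that excluded 1. Of the 6328 genes with at least 20 CPM in either library, 11.0% were higher in TIL by that rule and 13.8% higher in IEL, with a median log2 ratio of -0.10. Ordered from the gene most shifted towards IEL, Ccl4 ranked 3, Ccl5 24, Ccl3 67 and Xcl1 90 of 6328. The Ccl3 difference was sensitive to how cells were chosen. One rule took cells one by one, by transcripts of Trdc or the γ constant segments and the absence of Trac. By it the Ccl3 log2 ratio was -0.57, against -3.31 by clusters, and was no longer 2-fold. Ccl4 (-2.77), Ccl5 (-4.02) and Xcl1 (-3.59) stayed over 2-fold lower. Inside γδ T-like clusters, cells with these receptor transcripts and no Trac had 4.19 CPM of Ccl3 in TIL, against 78.4 CPM in IEL. Outside these clusters, a T cell marker UMI was found in 82.3% of macrophage-like TIL cells and 78.9% of TIL cells of cluster 18. The part of such cells in the change was not tested.

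**Figure D1:**
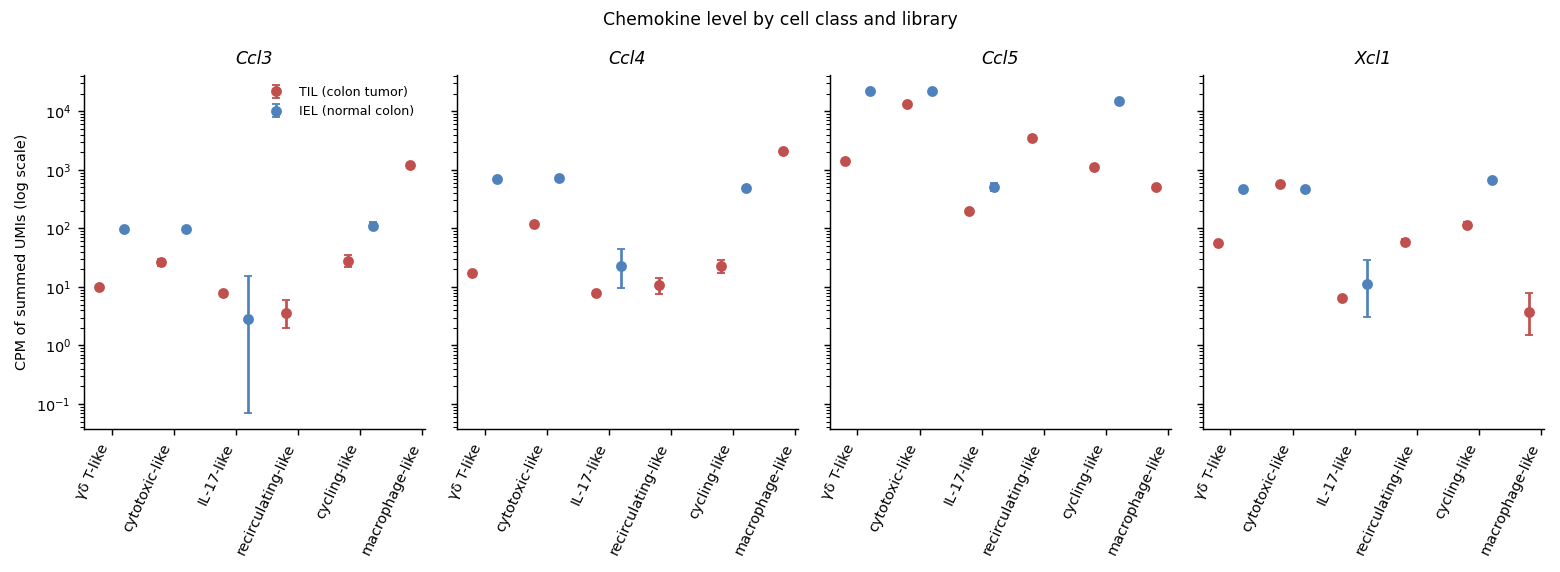
Level of each gene (CPM of summed UMIs, log scale) in TIL cells (red, left of each pair) and IEL cells (blue, right) of each cell class; bars are exact 95% Poisson intervals and groups under 50 cells are not drawn. The wide gap over all γδ T-like cells narrows for Ccl5 in cytotoxic-like cells, where Xcl1 is 1.23-fold higher in TIL (lower with finer clustering), and macrophage-like TIL cells carried 1221 CPM of Ccl3 and 2058 CPM of Ccl4.

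The gap was smaller within 1 subset. Cytotoxic-like cells were 8.78% of all TIL and 97.5% of all IEL cells, and within them the 4 genes parted. Ccl4 had 117 CPM in TIL cells (109 to 125), against 717 CPM in IEL cells (711 to 724), and stayed 6.15-fold lower. Ccl3 had 26.3 CPM in TIL cells (22.6 to 30.5), against 97.1 CPM in IEL cells (94.7 to 99.5), and stayed 3.69-fold lower. Ccl5 had 13417 CPM in TIL cells, against 22514 CPM in IEL cells, 1.68-fold lower and inside the 2-fold limit. Xcl1 had 569 CPM in TIL cells (551 to 588), against 464 CPM in IEL cells (459 to 469), 1.23-fold higher and also inside the limit. By the 2-fold rule, 2.14% of 6034 genes were higher in TIL and 4.41% higher in IEL cytotoxic-like cells. The small Xcl1 difference was not stable in direction. Its log2 ratio of 0.30 became -0.63 without clusters 7 and 8, which are led by Kit among other genes (a setting added after seeing the data). It became -0.41 with finer clustering (resolution 2.0), where 394 TIL cells in a cluster led by Gramd3 and Kit were named recirculating-like. These cells, with 886 CPM of Xcl1 and 2649 CPM of Ccl5, were thus not counted as cytotoxic-like there. Finer clustering also took Ccl5 to -0.09, near equality, while Ccl4 (-1.91) and Ccl3 (-1.34) stayed lower in TIL.

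The 4 genes were not highest in the same cytotoxic-like clusters. TIL cytotoxic-like cells lay mainly in cluster 7 (663 cells, led by Gramd3, Kit and Cdh1) and cluster 9 (330 cells, led by Cela1, Wnt11 and Cd8a). Cluster 7 had 678 CPM of Xcl1 (654 to 703), 8408 CPM of Ccl5 and 54.9 CPM of Ccl4. Cluster 9 of TIL turned this round, with 264 CPM of Xcl1 (241 to 289), 25365 CPM of Ccl5 and 197 CPM of Ccl4. Among IEL cells, cluster 8 (2092 cells, led by Klra5, Id3 and Tcf7, with Tcf7 a regulator of stem-like T cells) had 712 CPM of Xcl1, 7034 CPM of Ccl5 and 136 CPM of Ccl4. Cluster 13 (2671 cells, led by Cd200r2, Klre1 and Cd8a) had 344 CPM of Xcl1, 30796 CPM of Ccl5 and 841 CPM of Ccl4. Cluster 11 (2439 cells, led by Scin, Themis and Cd8b1) had 299 CPM of Xcl1, 26963 CPM of Ccl5 and 910 CPM of Ccl4. The IEL cells of cluster 12 (1507 cells, led by heat shock genes) had the highest Ccl3, 228 CPM (220 to 237), and the highest Ccl4, 1099 CPM, together with 24051 CPM of Ccl5 and 510 CPM of Xcl1, so that much Ccl4 and much Xcl1 also occurred in 1 cluster. Across the 5 IEL cytotoxic-like clusters, the highest level exceeded the lowest 15.6-fold for Ccl4, 7.34-fold for Ccl3, 4.38-fold for Ccl5 and 3.88-fold for Xcl1. Genes were not compared with each other in level, and no chemokine gene took part in drawing the clusters.

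**Figure D2:**
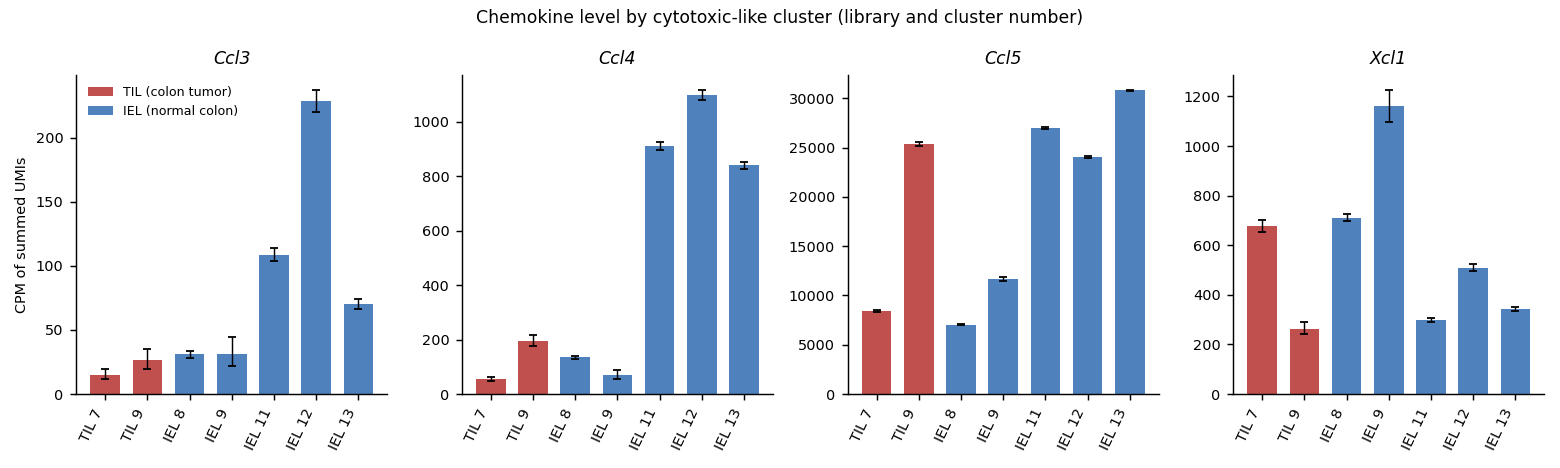
Level of each gene (CPM of summed UMIs, linear axes from 0) in each library-and-cluster group of at least 50 cytotoxic-like cells, TIL in red and IEL in blue; bars carry exact 95% Poisson intervals. Xcl1 is high in TIL cluster 7 and IEL clusters 8 and 9, where Ccl4 is 54.9, 136 and 70.5 CPM, and Ccl4 is highest in IEL clusters 11, 12 and 13.

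There were 5 clusters with at least 30 cells of both libraries, 4 of them cytotoxic-like, which allowed levels to be set side by side within a cluster, a comparison chosen after the data were seen. In cluster 9, with 330 TIL and 151 IEL cells, Ccl4 was higher in TIL cells, at 197 CPM against 70.5 CPM in IEL cells (log2 ratio 1.48, 1.11 to 1.86). Ccl5 was also higher in TIL cells of this cluster, 25365 CPM against 11630 CPM in IEL cells (1.12, 1.10 to 1.15). Xcl1 ran the other way, 264 CPM in TIL against 1160 CPM in IEL cells (-2.14, -2.29 to -1.98), and Ccl3, at 26.3 CPM in TIL, against 31.5 CPM in IEL cells, had an interval that included no difference. In cluster 7, with 663 TIL and 38 IEL cells, the pattern was opposite: Xcl1 was higher in TIL (log2 ratio 1.96) and Ccl4 (-2.54), Ccl3 (-2.05) and Ccl5 (-0.53) lower. In cluster 11, with 40 TIL and 2439 IEL cells, Ccl4 (-0.80), Ccl5 (-0.40) and Xcl1 (-0.95) were all lower in TIL, and in cluster 8, with 34 TIL and 2092 IEL cells, Xcl1 (1.01) and Ccl3 (1.09, 0.24 to 1.82) were higher and Ccl5 lower (-1.34). None of the 4 genes ran in 1 direction through all 4 cytotoxic-like clusters. For Ccl4 and Ccl5 the only one higher in TIL was cluster 9, and for Ccl3 it was cluster 8. Some of these ratios rest on few UMIs: 15 of Ccl3 in TIL cells of cluster 8, and 9 of Ccl3 and 25 of Xcl1 in IEL cells of cluster 7. In the IL-17-like cluster 4, with 2339 TIL and 50 IEL cells, Ccl4 (-3.03), Ccl5 (-2.44) and Xcl1 (-2.19) were lower in TIL, with 7 UMIs of Ccl4 and 4 of Xcl1 in its IEL cells. Cells of the 2 libraries within a cluster need not be the same mixture of states. At resolution 2.0, a cluster led by Cela1 held 296 TIL and 2 IEL cells, and one led by Wnt11 held 37 TIL and 190 IEL cells. The former's TIL cells had 27526 CPM of Ccl5 and 75.8 CPM of Xcl1. The latter's IEL cells had 11856 CPM of Ccl5 and 1148 CPM of Xcl1. Cluster 9 was led by both genes, so its values may set 2 states side by side, which was not tested.

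At an equal depth of 2000 UMIs per cell, Ccl5 was found in nearly every normal-colon cell and the other transcripts in a minority. Ccl5 had a UMI in 25.2% of TIL γδ T-like cells (24.4 to 26.0), against 99.0% of IEL cells (98.8 to 99.2). Ccl4 was found in 1.56% of TIL cells (1.34 to 1.80), against 35.3% of IEL cells (34.3 to 36.3). Xcl1 was found in 3.46% of TIL cells (3.13 to 3.80), against 33.9% of IEL cells (32.9 to 34.9), and Ccl3 in 0.995% of TIL cells, against 11.1% of IEL cells. Without thinning, the shares were 41.4% in TIL and 99.9% in IEL for Ccl5, 3.30% in TIL and 56.9% in IEL for Ccl4, 5.66% in TIL and 55.4% in IEL for Xcl1, and 2.38% in TIL and 24.7% in IEL for Ccl3. Thinning left out 81 TIL and 73 IEL γδ T-like cells that were shallower. In cytotoxic-like cells the shares were 91.7% in TIL and 99.3% in IEL for Ccl5, 97 of 1078 cells in TIL and 35.5% in IEL, for Ccl4, 30.1% in TIL and 34.1% in IEL for Xcl1, and 4.82% in TIL and 11.1% in IEL for Ccl3.

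As a rough guide to free RNA, the same shares were read in other groups of cells. Whether those cells make the transcripts themselves was not tested. In the TIL library, cluster 16 (81 cells led by Tnfrsf4, Ctla2a and Foxp3, median 7866 UMIs) had Ccl5 in 12.3% of cells, Ccl4 and Xcl1 in 1.23% each and Ccl3 in 0 of 81 cells, which allows a share of up to 4.45% (exact Clopper-Pearson, as for all shares). Macrophage-like TIL cells had Ccl5 in 18.1% and Xcl1 in 0.725%, and 82.3% of them also had a UMI of a T cell marker. Their Ccl5 level was 518 CPM (486 to 552), against 90.2 CPM (70.5 to 114) in cluster 16. In the IEL library, the 58 IL-17-like cells of sufficient depth (median 6195 UMIs) had Ccl5 in 62.1%, Ccl4 in 5.17%, Xcl1 in 3.45% and Ccl3 in 0 of 58 cells, which allows up to 6.16%. Their Ccl5 level was 512 CPM, against the 22201 CPM of all IEL γδ T-like cells. Cluster 18, of mixed markers, held 29 IEL cells with a median of 6372 UMIs, all of them with an epithelial marker. Their Ccl5 level was 13901 CPM, and a T cell marker was also found in 93.1% of them, so free RNA cannot be read there.

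The transcripts were unevenly spread over cells that had the same depth. In IEL γδ T-like cells, the tenth of cells with most UMIs of a gene held 73.6% of the Ccl4 UMIs, 94.3% of the Ccl3 UMIs and 64.0% of the Xcl1 UMIs, but 22.3% of the Ccl5 UMIs. Ccl4 was missing from 64.7% of these cells, where a Poisson spread of its UMIs would leave 23.6% without one, and its highest count was 116 of 2000 UMIs. Ccl5 averaged 44.2 UMIs per 2000 in IEL cells, and 93.2% of them held at least 5. In TIL γδ T-like cells Ccl5 averaged 3.43 UMIs, 74.8% of cells had none, and the tenth with most held 92.4% of its UMIs. TIL cytotoxic-like cells lay nearer to IEL cells, with a mean of 29.6 Ccl5 UMIs and 76.6% of cells at 5 or more, against 44.7 UMIs and 93.9% in IEL cytotoxic-like cells. Xcl1 had almost the same mean count in these cells, 0.907 in TIL and 0.867 in IEL, and a highest count of 47 in each.

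IL-17-like cells, the bulk of the TIL library, carried little of any of the 4 transcripts. Their levels were 200.7 CPM of Ccl5, 7.93 CPM of Ccl3, 7.88 CPM of Ccl4 and 6.45 CPM of Xcl1. The 59 IEL cells of this kind had 512 CPM of Ccl5 from 183 UMIs, and 8 UMIs of Ccl4, 4 of Xcl1 and 1 of Ccl3. Ccl5 was detected in 15.9% of TIL IL-17-like cells, where cluster 16 had 12.3% (6.08 to 21.5), and Ccl3, Ccl4 and Xcl1 in 0.586%, 0.720% and 0.350%. None of these 4 shares lay above the interval of cluster 16, and those of Ccl3, Ccl4 and Xcl1 are not read as expression. By level, Ccl5 was higher in IL-17-like cells (200.7 CPM, 197 to 204) than in cluster 16 (90.2 CPM, 70.5 to 114), and Ccl3 had 7.93 CPM (7.30 to 8.61), against 0 UMIs in cluster 16 with an upper limit of 4.69 CPM. The part of free RNA was not tested. Among the 5 IL-17-like clusters Ccl5 lay between 58.5 and 365 CPM. It was highest in cluster 1, led by Areg, Nrgn and Mmp9, where 24.4% of cells had a UMI, above the upper limit of 21.5% in cluster 16. There were 117 UMIs of Ccl5 per UMI of Xcl1 in cluster 1 (91.8 to 152) and 12.9 in cluster 3 (11.5 to 14.4), against 24.6 over all TIL cells. Xcl1 was found in 0.390% of cells in cluster 1 and 0.512% in cluster 3, so these ratios rest on few cells. Their intervals do not cover the spread between cells. Recirculating-like TIL cells, led by Ly6c2, Gramd3 and Myb, stood between IL-17-like and cytotoxic-like TIL cells in Ccl5 and Xcl1. They had 3560 CPM of Ccl5 in 51.8% of cells and 58.5 CPM of Xcl1. Their Ccl4, 10.6 CPM (7.61 to 14.4), was near that of IL-17-like cells, and their Ccl3, 3.62 CPM (1.98 to 6.08), lay below both subsets. Cycling-like cells of the 2 libraries lay mainly in different clusters. The 125 TIL cells of cluster 14 had 222 CPM of Ccl5, 18.7 CPM of Ccl4 and 1 UMI of Xcl1, and the 103 IEL cells, all in cluster 15, had 15223 CPM of Ccl5, 493 CPM of Ccl4 and 667 CPM of Xcl1. With the 23 TIL cells of cluster 15 added, TIL cycling-like cells came to 1128 CPM of Ccl5, so that level rests on those 23 cells.

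Most Ccl3 and Ccl4 transcripts of the tumor library lay outside the γδ T-like cells. Macrophage-like cells (158 cells, led by Apoe, Lyz2 and C1qa) held 44.1% of the library's Ccl3 UMIs and 57.0% of its Ccl4 UMIs. Cluster 18 (128 TIL cells) held another 37.3% of the Ccl3 and 16.9% of the Ccl4 UMIs. It was led by S100a9, S100a8 and Retnlg, which mark neutrophils, but was left unnamed for its mixed markers. A neutrophil marker UMI was found in 54.7% of its TIL cells and an epithelial one in 34.4%. The levels were 1221 CPM of Ccl3 (1171 to 1272) and 2058 CPM of Ccl4 (1993 to 2124) in macrophage-like cells, and 2495 CPM of Ccl3 and 1477 CPM of Ccl4 in cluster 18. γδ T-like cells, 94.6% of the TIL cells, held 16.4% of the Ccl3 UMIs and 21.8% of the Ccl4 UMIs, but 86.5% of the Ccl5 and 84.2% of the Xcl1 UMIs. In the IEL library γδ T-like cells held between 99.5% and 99.6% of the UMIs of each of the 4 genes. Taken over all cells of each library, Ccl3 thus had 55.0 CPM in TIL, against 96.4 CPM in IEL, under a 2-fold difference, and Ccl4 71.7 CPM in TIL, against 704 CPM in IEL. Within γδ T-like cells the 10 macrophage markers summed to 29.0 CPM in TIL, against 3.14 CPM in IEL and the 7 neutrophil markers to 43.4 CPM in TIL, against 0.924 CPM in IEL, with S100a9 the one marker of both lists to reach 20 CPM in TIL. Without cells that had at least 1% of UMIs from markers of other cell types, the log2 ratios kept their direction (Ccl3 -3.30, Ccl4 -5.37).

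Joint detection was examined for the 6 pairs of genes at 2000 UMIs per cell. At least 2 of the 4 genes were found in 4.10% of TIL γδ T-like cells (3.75 to 4.48), against 61.0% of IEL cells (60.0 to 62.0), and in 35.7% of TIL cytotoxic-like cells, against 61.4% of IEL ones. All 4 were found in 5 of 11657 TIL cells, against 197 of 9005 IEL cells. In TIL cytotoxic-like cells, Ccl5 alone was the most frequent state (56.1%), followed by Ccl5 with Xcl1 (23.4%) and Ccl5 with Ccl4 (5.84%). In IEL cytotoxic-like cells Ccl5 alone was found in 37.9%, Ccl5 with Xcl1 in 21.2% and Ccl5 with Ccl4 in 20.4%. Xcl1 without any of the other 3 was found in 4.27% of TIL and 0.408% of IEL cytotoxic-like cells.

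**Figure D3:**
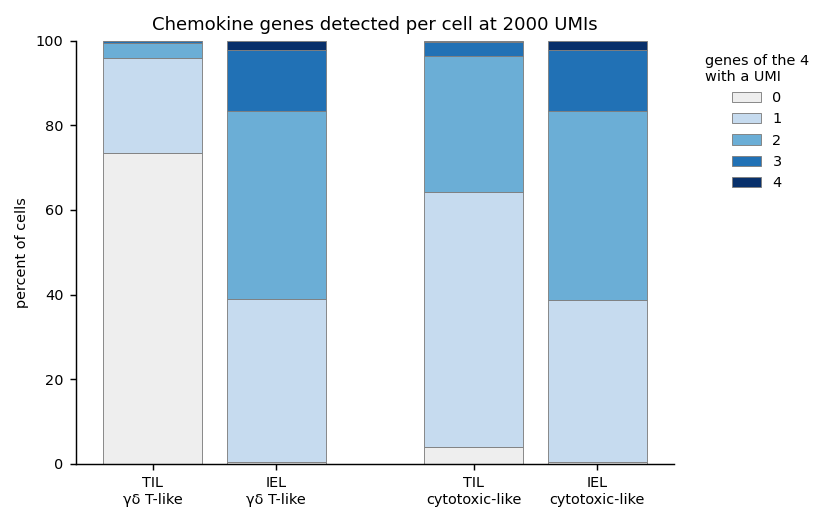
Percent of cells with a UMI of 0 to 4 of the chemokine genes (shades) at 2000 UMIs per cell, TIL left of IEL, for γδ T-like and for cytotoxic-like cells. The share with at least 2 genes is 4.10% in TIL and 61.0% in IEL γδ T-like cells, and 35.7% for TIL and 61.4% for IEL cytotoxic-like cells.

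Ccl3 and Ccl4, neighbours on the chromosome, were found together more often than their separate shares would give. Among TIL cytotoxic-like cells with Ccl3, 30.8% also had Ccl4, against 7.89% of those without Ccl3, an odds ratio of 5.19. Among IEL cytotoxic-like cells these were 58.2% and 32.7%, an odds ratio of 2.87. Within clusters, which removes the part due to a mixture of clusters, the odds ratios were 4.03 in TIL and 2.22 in IEL cells. In macrophage-like TIL cells 70.6% of Ccl3-positive cells had Ccl4, against 13.8% of the others, an odds ratio of 15. Over all γδ T-like cells the odds ratio was 21.1 in TIL and 2.89 in IEL, and within clusters it was 6.46 in TIL and 2.22 in IEL. Every cytotoxic-like cell with Ccl3 had Ccl5, 52 of 52 in TIL and 981 of 981 in IEL, but so had 91.3% of TIL and 99.2% of IEL cells without Ccl3.

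Xcl1 was found less often in cells with Ccl5 than in those without, in cytotoxic-like cells of both libraries. Cells without Ccl5 were few. In TIL 47 of them had Xcl1 and 42 did not, and in IEL 37 had it and 26 did not. In TIL cytotoxic-like cells the odds ratio of Xcl1 was 0.470 with Ccl3, 0.615 with Ccl4 and 0.349 with Ccl5, and within clusters 0.491, 0.583 and 0.510. The first of these rests on 9 cells with both. In IEL cytotoxic-like cells the odds ratio was 1.02 with Ccl3, 0.775 with Ccl4 and 0.360 with Ccl5, and within clusters 1.19, 1.04 and 0.728. The odds ratio of Xcl1 with Ccl4 was thus below 1 in IEL over all cytotoxic-like cells and not within clusters. By level, IEL cells with Xcl1 had more Ccl4, 820 CPM against 683 CPM in cells without. Over all TIL γδ T-like cells Ccl5 and Xcl1 had an odds ratio of 15.5, which was 1.32 within clusters. Cells are not replicates and these odds ratios carry no test.

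**Figure D4:**
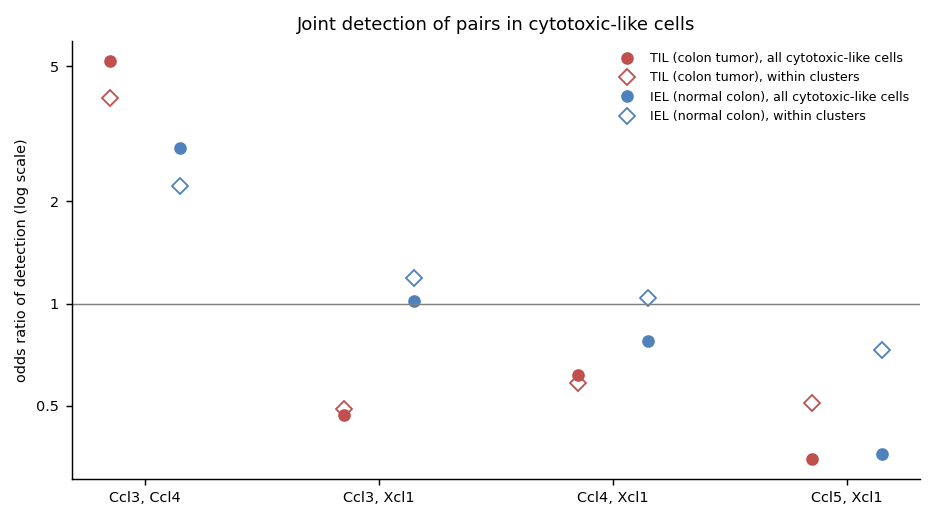
Odds ratio of joint detection (log scale) for 4 pairs of genes in cytotoxic-like cells at 2000 UMIs per cell, TIL in red left of IEL in blue; filled circles are over all cytotoxic-like cells and open diamonds within clusters, and the grey line marks 1. Ccl3 with Ccl4 lies above 1 in both libraries, and Ccl5 with Xcl1 below 1 in both, where 89 TIL and 63 IEL cells had no Ccl5.

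Genes that differed between cytotoxic-like cells with and without each transcript were taken within each library at 2000 UMIs per cell, among genes with at least 50 CPM on either side. IEL cells with Ccl3 (981 cells) had more Ccl4, at 1835 CPM against 592 CPM in cells without (log2 ratio 1.63, 1.58 to 1.69). They also had more of the stress-induced genes Hspa1b (1.15), Atf3 (1.09) and Hspa1a (0.91), and less Tcf7 (-1.07) and Satb1 (-1.05). By the 2-fold rule 0.0960% of 3126 genes were higher in these cells and 0.0640% lower. TIL cells with Ccl3 (52 cells) likewise had more Hspa1a (2.72, 2.13 to 3.27), Hspa1b (2.56, 1.89 to 3.18), Ccl4 (2.50, 2.08 to 2.89) and Atf3 (2.50, 0.90 to 3.85). By the rule 3.45% of 3338 genes were higher in them and 1.38% lower. Within clusters the TIL ratio of Hspa1a was 1.05 and that of Hspa1b 0.65, and the IEL ratios were 0.36 and 0.56.

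IEL cells with Ccl4 (3135 cells) had more Ccl3 (1.73), Gadd45b (0.79), Scin (0.77), Gzmb (0.75) and Tbx21 (0.66), the gene of the type-1 regulator T-bet, and less Bend4 (-1.43), Tcf7 (-1.38) and Kit (-0.98). By the 2-fold rule 0.0320% of 3121 genes were higher in them and 0.0961% lower, so most of these differences were small. IEL cells with Xcl1 (3008 cells, 0.0966% of 3104 genes higher by the rule) had more Id3 (1.14), Klra5 (1.10), Tcf7 (1.02) and Cd160 (0.84) and less Scin (-0.80), Gzma (-0.79) and Ccl5 (-0.57). Within clusters Tcf7 came to -0.28 for Ccl4 and 0.30 for Xcl1, and Kit to -0.23 for Ccl4. TIL cells with Xcl1 (325 cells, 0.761% of 3155 genes higher by the rule and 1.58% lower) had more Hspa1a (2.08), Ccr7 (1.64), Klf4 (1.35) and Nr4a1 (1.10), which is induced by receptor signals, and less Cd200r2 (-2.19), Gzma (-1.91), Gzmb (-1.79) and Ccl5 (-1.38). Hspa1a and Nr4a1 are both among the 20 genes induced by tissue digestion that are taken up below. The Hspa1a ratio was 0.29 within clusters. TIL cells with Ccl5 (989 cells) stood out by Gzma, at 15787 CPM against 95.5 CPM in the 89 cells without (7.37), Ccl4 (4.78, 2.29 to 10.1), Gzmb (3.85) and Cd8a (3.68), where 4.57% of 3370 genes were higher by the rule and 2.67% lower, and had less of the granzyme gene Gzmc (-3.35) and of Id3 (-2.89). In IEL cells the highest ratios with Ccl5, against 63 cells without it, were those of Gzma (5.68), Ccl4 (5.53, 3.68 to 8.58), Actn2 (3.98), Ptger4 (3.57) and Gzmb (3.38), where 2.96% of 3445 genes were higher and 3.05% lower. Within clusters Gzma came to 2.32, Ccl4 to 2.84 and Gzmb to 0.67. TIL cells with Ccl4 (97 cells, 2.30% of 3350 genes higher and 1.25% lower) had more Hspa1b (2.46), Cd8b1 and Ccl3 (2.30). They had less Ahr (-2.92, -5.98 to -1.04) and Tcf7 (-1.79, -3.43 to -0.54). Gzma, Gzmb, Tbx21, Cd8a and Cd160 are among the markers that named the subset.

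In the TIL IL-17-like cells the few with Ccl3 (57 cells) had more Ccl4 (log2 ratio 5.82) together with S100a8 (3.66) and S100a9 (3.46), transcripts of neutrophils (2.44% of 3395 genes higher, 1.15% lower). Those with Ccl4 (70 cells) had more of the mast cell genes Mcpt1 (7.46) and Mcpt2 (7.11), where 2.61% of 3442 genes were higher and 1.19% lower. Those with Ccl5 (1544 cells) had more Ccr9, the gut homing receptor (2.04), Nkg7 (1.59) and Gzma (1.45), and less Il17f (-1.05), where 0.296% of 3044 genes were higher and 0.197% lower. These genes of IL-17-like cells were picked after their values were seen. The part of transcripts from other cells in these droplets was not tested.

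Tissue digestion induces a set of early and heat shock genes, and the 20 of these in the fixed list differed between the libraries. They took a median of 58.2 of 10000 UMIs in TIL γδ T-like cells, against 121 in IEL cells, and of 18 measured 0 were higher in TIL and 11 in IEL by the 2-fold rule, where 11.0% of all genes were higher in TIL and 13.8% in IEL. Cells of both libraries were put together into 3 bins of equal size by this share. In IEL cytotoxic-like cells Ccl3 had 50.3, 62.9 and 126 CPM from the lowest to the highest bin, Ccl4 476, 655 and 809 CPM, and Xcl1 264, 421 and 535 CPM, while Ccl5 had 28173, 23801 and 20449 CPM. In TIL cytotoxic-like cells Ccl3 had 19.1, 21.9 and 85.7 CPM, Ccl4 58.4, 193 and 220 CPM, Xcl1 579, 418 and 1016 CPM and Ccl5 13195, 14427 and 11418 CPM, with 115 cells in the highest bin. So Ccl3 and Ccl4 were highest in the bin with most of these transcripts in both libraries and Ccl5 lowest. The part of digestion in this was not tested.

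The difference between libraries was still present among cells with little of this stress signal. In the lowest bin of γδ T-like cells the log2 ratio of TIL over IEL was -5.70 for Ccl4, -4.26 for Ccl5, -2.53 for Ccl3 and -2.06 for Xcl1. In the lowest bin of cytotoxic-like cells it was -3.03 for Ccl4, -1.40 for Ccl3 and -1.09 for Ccl5, which there passed 2-fold. Xcl1 had 579 CPM in TIL, against 264 CPM in IEL cells of that bin, 1.13 on the log2 scale (1.05 to 1.21), and was thus over 2-fold higher in TIL. Without the heat shock cluster 12, the cytotoxic-like ratios were -2.47 for Ccl4, -1.62 for Ccl3 and -0.73 for Ccl5.

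**Figure D5:**
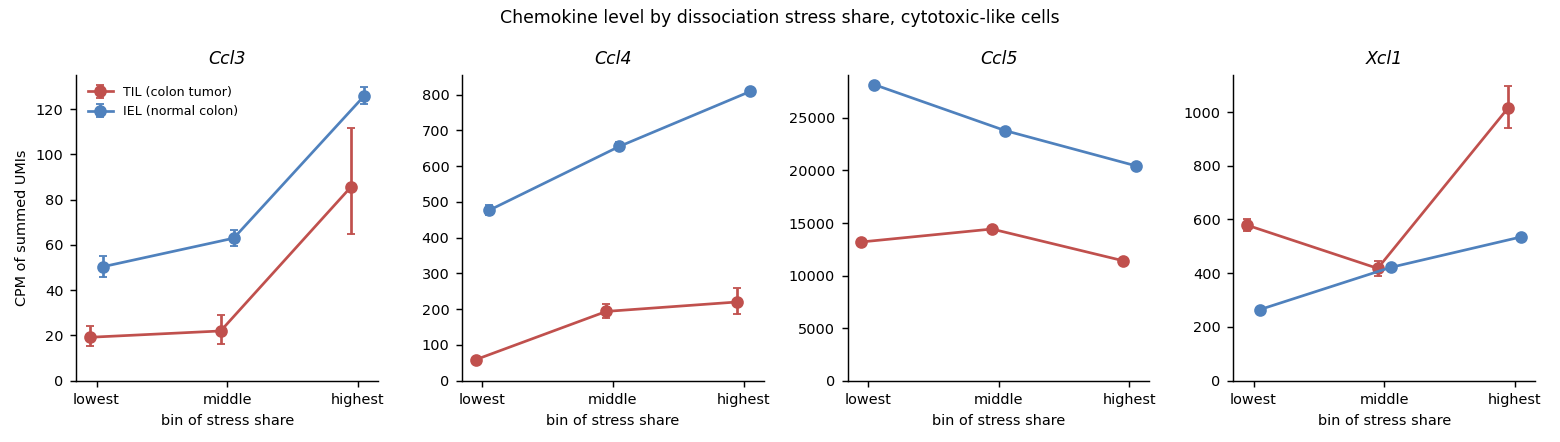
Level of each gene (CPM of summed UMIs, linear axes from 0) in cytotoxic-like cells by bin of the share of UMIs from 20 dissociation-induced genes, TIL in red and IEL in blue, with exact 95% Poisson intervals. Ccl3 and Ccl4 are highest in the highest bin of both libraries, Ccl5 is lowest there, and Xcl1 in TIL is 579, 418 and 1016 CPM.

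Grouping γδ T-like cells by receptor transcripts gave the same direction for each gene. In cells with γδ receptor transcripts and no Trac UMI, 62.7% of TIL and 22.1% of IEL cells, Ccl5 had 898 CPM in TIL, against 15084 CPM in IEL cells, and Ccl4 7.88 CPM in TIL, against 501 CPM in IEL cells. In cells with both, 37.1% of TIL and 77.6% of IEL cells, Ccl5 had 2139 CPM in TIL, against 23825 CPM in IEL cells, and Ccl4 29.7 CPM in TIL, against 755 CPM in IEL cells. Within each library the CPM of all 4 genes was higher in the cells with both. These cells were also deeper, with medians of 6949.5 against 6110 UMIs in TIL and 7100 against 6151.5 UMIs in IEL. The part of depth or of αβ T cells in this was not tested. The 184 IEL cells with Trac and no Trdc UMI had 24611 CPM of Ccl5.

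Over the 16 library-and-cluster groups with at least 50 γδ T-like cells, the genes most like each member in log2(CPM + 10) were listed as a description; the groups share their library and its depth. Ccl5 was most like Nkg7, a granule membrane gene (Pearson r = 0.992), then the T cell kinase gene Lck (0.975), Gimap7, Crbn and Asxl2. Ccl4 was most like Zfp773 (0.963), Pelo, Rab11fip4, Gsap and Rtn4rl1, and Ccl3 most like Pelo (0.938), Ccl4 (0.935), Psmb9, Dok1 and Mns1. Xcl1 was most like Gimap7 (0.964), Ubac2, Ncf1, Trat1 and Cers6. Among the members, Ccl3 and Ccl4 had r = 0.935, Ccl5 and Xcl1 0.923 and Ccl3 and Xcl1 0.685.

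Of 7 receptors and binding partners of these chemokines, 4 reached 20 CPM in γδ T-like cells and 3 of these were higher in TIL by the 2-fold rule, where 11.0% of all genes were: Ccr1 (83.9 CPM in TIL, 0.132 CPM in IEL) and the heparan sulfate carriers Sdc4 (253 CPM in TIL, 2.62 CPM in IEL) and Sdc1 (109 CPM in TIL, 2.51 CPM in IEL). In cytotoxic-like cells these 3 were below 20 CPM, with Ccr1 at 2.07 CPM, Sdc4 at 6.51 CPM and Sdc1 at 4.88 CPM in TIL, and 0 of the 7 were called higher in TIL. Xcr1 had at most 0.558 CPM in either library.

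Of 34 other chemokine genes, 3 reached 20 CPM in γδ T-like cells, and 2 of them, the neutrophil attractants Cxcl2 (210.03 CPM in TIL, 2.57 CPM in IEL) and Cxcl3 (44.6 CPM in TIL, 0.0880 CPM in IEL), were higher in TIL, against 11.0% of all genes. Cxcl10, an interferon-induced chemokine gene, had 47.4 CPM in TIL, against 29.0 CPM in IEL. In cytotoxic-like cells Cxcl10 had 59.2 CPM in TIL, against 26.0 CPM in IEL, and Cxcl2 20.3 CPM in TIL, against 0.817 CPM in IEL, so that both were higher in TIL there, where 2.14% of all genes were. Of 14 type-1 effectors and regulators 10 were measured over γδ T-like cells, of which 1 was higher in TIL and 5 in IEL (11.0% and 13.8% of all genes), with a median log2 ratio of -1.05 against -0.10 for all 6328 genes. Ifng had 5.48 CPM in TIL, against 65.8 CPM in IEL cells, Tbx21 2.98 CPM in TIL, against 55.2 CPM in IEL, and Fasl 11.4 CPM in TIL, against 66.9 CPM in IEL. Nfkb1, a subunit of NF-kB, was the one higher in TIL, at 609 CPM against 120 CPM in IEL. In cytotoxic-like cells 1 of 10 was higher in TIL, Nfkb1, and 2 in IEL, Ifng (26.5 CPM in TIL, 66.5 CPM in IEL) and Tbx21 (21.4 CPM in TIL, 55.4 CPM in IEL), beside 2.14% and 4.41% of all genes, and the median was -0.39, where that of all genes was -0.06. Of 5 granule genes, Nkg7 (176 CPM in TIL, 1379 CPM in IEL) and Gzma (4132 CPM in TIL, 9585 CPM in IEL) were higher in IEL, and Srgn, the granule proteoglycan gene, was higher in TIL (6153 CPM in TIL, 1837 CPM in IEL), with 13.8% of all genes higher in IEL and 11.0% in TIL. None of the 5 passed the 2-fold rule within cytotoxic-like cells, where Gzmb came nearest (1937 CPM in TIL, 3733 CPM in IEL). Gzma, Gzmb, Nkg7, Tbx21 and Fasl are among the markers that named this subset, so their levels there are not independent of the naming.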

How the data were processed

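Droplet 3′ single-cell libraries of 1 TIL and 1 IEL sample were deposited as filtered gene-by-barcode matrices of UMI counts, made by the authors with Cell Ranger 6.1.1 on mm10, per the submitters' processing notes and the file headers. Introns, strand and cell calling settings are not given in the sources used here. From these counts, cells with at least 500 genes, 1000 UMIs and at most 10% mitochondrial UMIs were kept. Cells of both libraries were clustered together with Scanpy 1.11.5 (2000 variable genes, 30 principal components, 15 neighbours, Leiden resolution 1.0), without batch correction and without 44 chemokine rows and receptor, ribosomal, mitochondrial, haemoglobin and sex-linked genes. Clusters were named from marker lists by mean marker level, with those of mixed markers left unnamed. No doublet caller was run, and cluster 10, with markers of more than 1 T cell subset and a median of 12837.5 UMIs, was set apart unnamed. Python 3.11.15, numpy 2.4.6, scipy 1.17.1, pandas 2.3.3, igraph 0.11.9 and matplotlib 3.10.9 were used.

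Counts were summed per library and group as CPM with exact Poisson intervals. Ratios carry exact conditional intervals, and a call needed 20 CPM in one of the libraries, a 2-fold difference and an interval that excluded 1. Where a group had 0 UMIs, a floor of 3 UMIs was used. Shares and joint detection used cells thinned to 2000 UMIs, with exact Clopper-Pearson intervals at 95%, and within-cluster odds and rate ratios used the Mantel-Haenszel form. All intervals cover counting error only. The call rule was also run on counts simulated with Poisson error alone, for the comparison of γδ T-like cells (6328 genes). It called 100% of 100 genes changed 3-fold, 100% of 100 genes changed 8-fold and 0% of 6128 unchanged genes. No variation between cells, animals or libraries was simulated. These shares are thus no rate of false calls for the real libraries.

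Genes named are the 4 members, members of the gene lists, the 5 genes most like each member, and for cytotoxic-like cells with a member the 8 genes with the highest and 4 with the lowest ratio. The members and lists were chosen with earlier results of these data known. The cluster naming score, the within-cluster comparison, the split by Trdc and Trac, the UMI ratios and the promoter motifs in capitals were chosen after seeing the data. Gene positions come from GENCODE vM21 (GRCm38) and promoters from RefSeq (GRCm38.p6). A result on 1 gene of the lists is not reported here.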

Additional observations from a re-analysis of the deposited data

How the results depend on the processing

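Of 148 recomputed values, 46 were counted as unmoved and 102 as moved, and 0 called values changed sign. For ratios of level, shares and joint detection, unmoved means inside the counting interval of the main value, a narrow margin at this depth. The folds between clusters have no such interval. By a separate limit, 5 of them were counted as unmoved and 11 as moved. The Xcl1 ratio within cytotoxic-like cells, which was not called, did change sign. It went from 0.30 to -0.41 at resolution 2.0 and to -0.63 without clusters 7 and 8. The log2 ratios of TIL over IEL in γδ T-like cells are given in the order Ccl3, Ccl4, Ccl5, Xcl1. They were -3.18, -5.17, -3.92 and -2.97 with the looser cell filter, and -0.57, -2.77, -4.02 and -3.59 with the cell-wise rule on receptor transcripts. They were -0.81, -3.30, -3.88 and -2.92 over all cells, and -3.56, -5.17, -3.68 and -3.17 as a mean over cells. In the lowest stress bin they were -2.53, -5.70, -4.26 and -2.06. The stricter filter gave -2.86 for Ccl3 and -5.27 for Ccl4. Setting the median of all genes to 0 gave -5.28 for Ccl4, -3.87 for Ccl5 and -2.95 for Xcl1. Without the heat shock cluster, Ccl3 was -2.89, Ccl4 -5.22 and Ccl5 -3.95.

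Within cytotoxic-like cells, in the same order, the ratios were -2.21, -3.05, -0.66 and 0.034 by the cell-wise rule, -1.34, -1.91, -0.091 and -0.41 at resolution 2.0, and -1.40, -3.03, -1.09 and 1.13 in the lowest stress bin. Without clusters 7 and 8 they were -1.38, -1.87, -0.14 and -0.63. Without the heat shock cluster Ccl3 was -1.62, Ccl4 -2.47 and Ccl5 -0.73, and without cluster 11 Ccl5 was -0.67 and Xcl1 0.17. The stricter filter gave -1.39 for Ccl3 and -0.77 for Ccl5. The settings that leave out a cluster, and the one without the tenth of cells with most UMIs, were added after seeing the data. The cause of these shifts was not tested.

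Shares of cells followed the depth. Thinned to 1000 UMIs, Ccl3 was found in 0.571% of TIL and 6.79% of IEL cells, Ccl4 in 1.04% of TIL and 25.4% of IEL, Ccl5 in 19.3% of TIL and 97.4% of IEL, and Xcl1 in 2.32% of TIL and 23.0% of IEL. At 3000 UMIs the shares were 1.35% of TIL and 14.5% of IEL for Ccl3, 2.05% of TIL and 41.9% of IEL for Ccl4, 29.1% of TIL and 99.5% of IEL for Ccl5, and 4.19% of TIL and 41.0% of IEL for Xcl1, and 5.08% of TIL and 70.4% of IEL cells had at least 2 genes. Without thinning the shares were 2.38% of TIL and 24.7% of IEL, 3.30% of TIL and 56.9% of IEL, 41.4% of TIL and 99.9% of IEL, and 5.66% of TIL and 55.4% of IEL in the same gene order. At least 2 genes were then found in 7.61% of TIL and 85.5% of IEL cells, and the TIL odds ratio of Ccl3 with Ccl4 was 10.8. By the cell-wise rule Ccl3 was found in 1.52% of TIL and 8.38% of IEL cells, Ccl4 in 27.5% of IEL, Ccl5 in 23.5% of TIL and 97.4% of IEL, and Xcl1 in 2.70% of TIL and 36.1% of IEL. With cytotoxic-like cells alone, 35.7% of TIL cells had at least 2 genes and the TIL odds ratio was 5.19. In the lowest stress bin 52.2% of IEL cells had at least 2 genes and the IEL odds ratio was 2.41.

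The fold between the highest and lowest cytotoxic-like cluster depended on the resolution, as did which TIL clusters bore that name. At 2.0 it was 1.06 for Ccl3, 1.23 for Ccl4, 1.42 for Ccl5 and 4.24 for Xcl1 in TIL, and 16.1 for Ccl3 and 6.61 for Ccl5 in IEL. At 0.5 it was 17 for Ccl4, 9.52 for Ccl5 and 10.1 for Xcl1 in TIL, and 9.48 for Ccl4 and 2.35 for Xcl1 in IEL. No paired analysis was possible because each group is 1 library and no test was made. Cell number limits the groups of 59 IEL IL-17-like cells and of 52 TIL cytotoxic-like cells with Ccl3.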

Other observations

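Joint detection of Ccl3 and Ccl4 was also found in TIL cells outside the cytotoxic-like subset. Of 57 TIL IL-17-like cells with Ccl3, 7 also had Ccl4, an odds ratio of 20.4 within clusters. The cells with Ccl3 also had more S100a8 (log2 ratio 3.66) and S100a9 (3.46) of neutrophils and those with Ccl4 more Mcpt1 (7.46) of mast cells, and these low shares are not read as expression by the IL-17-like cells. Cluster 10, left unnamed, had 4240 CPM of Ccl5 and 216 CPM of Xcl1 in 302 TIL cells, against 15420 CPM of Ccl5 and 255 CPM of Xcl1 in 20 IEL cells.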
